A study of Mus musculus with 16 samples.

Results

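The 10 genes described here were chosen by name for the barrier lipid and crosslinking steps of skin cornification, and were followed through sorted cells of hair follicle stem cell (HFSC) organoids: Elovl4, Cers3, Ugcg, Abca12, Alox12b, Aloxe3, Tgm1, Tgm3, Casp14 and Asprv1. All 10 were among the 32989 genes counted and all 10 were among the 19049 genes with a mean of at least 5 counts per library that entered the tests. The organoids (3D–3C cultures, in which epidermal cells grow with a balance of stem cells and their progeny) came from 4 C57BL/6J mice and were cultured for 2 weeks. By their replicate numbers, each mouse gave 4 libraries. These were α6+/CD34− progenitors and α6+/CD34+ HFSCs from untreated organoids, which the sample titles call WT, and the same populations from organoids that received the acetylated polyamine N1-acetylspermidine (N1-AcSpd) over 72 h. Both populations were sorted on integrin α6, which holds cells to the basement membrane, and were separated on CD34, a surface marker of bulge stem cells. The study drew mice of both sexes, and the labels do not give the sex or age of each mouse.

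The water barrier of the skin is built by keratinocytes that leave the basal layer. A very long fatty acid is joined to a sphingoid base, the ceramide is glucosylated and packed into lamellar granules, its linoleate is oxidised after release, and part of the lipid is bound to the cornified envelope, a shell of crosslinked proteins inside the cell membrane. Loss of single enzymes of this route causes forms of congenital ichthyosis. Basal keratinocytes, which still divide, are known for low levels of these enzymes.

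The libraries held 15480075 to 29074855 unique molecules (UMIs) and 22142 to 24247 detected genes each. Values are CPM (counts scaled to library size, with TMM factors), in the order of mice 1 to 4, and means are mean±s.d. (n=4). Cd34 was lower in every progenitor library than in any HFSC library, with 3.19±0.0942 CPM against 49.9±5.89 CPM in untreated organoids, although its antisense neighbour Gm16897 was given nearly the same counts. Itga6, the gene of the integrin α6 on which both populations were sorted, was lower in HFSCs. Its log2 difference was −0.34 untreated (edgeR adjusted p=0.0009) and −0.17 with N1-AcSpd (edgeR adjusted p=0.0437). With N1-AcSpd, scaling by library totals moved the median of all genes from −0.01 to 0.11. All 7 tested bulge stem cell markers were higher in HFSCs in both conditions, and all 7 suprabasal keratinocyte markers were lower. Of 5 basal keratinocyte markers Trp63 and Col17a1 were higher in HFSCs (log2 0.32 and 0.24 untreated, 0.39 and 0.33 with N1-AcSpd) and Krt5 and Itgb4 did not pass the test. Krt14, with group means of 4868 to 5414 CPM, was lower (log2 −0.14, adjusted p=0.0366, and −0.15, adjusted p=0.029), but not past the test when libraries were scaled by their totals (log2 −0.03 in both conditions), nor with thinning untreated or only the compared groups after N1-AcSpd (adjusted p=0.0501 and 0.0636). Defining markers of fibroblasts (Col1a1), T cells (Cd3e) and inner root sheath (Krt71) had group means of at most 0.0696, 0.0580 and 0.0293 CPM. The summed fibroblast markers were 0.473 to 1.39 CPM in untreated progenitors and 0.171 to 0.713 CPM in untreated HFSCs, and the summed immune markers 3.64 to 5.91 and 2.79 to 5.14 CPM. The summed inner root sheath markers were 3.61 to 5.17 and 2.26 to 4.06 CPM untreated and 4.01 to 4.26 and 2.58 to 2.84 CPM with N1-AcSpd, nearly all of it Tchh. The tested genes of these lists included some that were lower in HFSCs with the barrier enzymes. Tchh (trichohyalin), the only one tested of its list, was lower in both conditions (log2 −0.52, adjusted p=0.0232, or 0.0551 to 0.104 with library totals, thinning or only the compared groups, and −0.64, adjusted p=0.00629). Tchh overlaps the antisense gene Gm37245, given 9620 counts in all where Tchh had 1188, and Itgam overlaps Gm49368, given 9974 where Itgam had 1229. Of the 2 tested fibroblast markers Col1a2 was lower (log2 −2.19 and −2.25, on 1 to 2 UMIs per HFSC library; adjusted p=0.0381 untreated, or 0.0503 to 0.0653 with mouse as a block, no filter, only the compared groups or DESeq2), and of the 2 tested immune markers Itgam (−0.48, adjusted p=0.0161, or 0.0628 with library totals, and −0.52). Their part in the values of the barrier enzymes was not tested. Of 4 tested sebaceous gland markers Fasn and Plin2 were lower in HFSCs (log2 −0.54 and −0.26 untreated, −0.44 and −0.37 with N1-AcSpd). Mgst1 was higher (0.84 and 1.26) and Far2 lower with N1-AcSpd alone (−0.21). The summed sebaceous markers were 140 to 162 CPM in untreated progenitors and 148 to 151 CPM in untreated HFSCs. Of 4 tested melanocyte markers Mitf alone was called, higher in untreated HFSCs (log2 0.28). Pecam1, on the endothelial list, stood at 1755 to 1985 CPM in the group means while Kdr and Tek, on the same list, were at or below 0.149 CPM.

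The upstream sequences of 3 of the genes are printed as examples of the start regions of genes that were lower in HFSCs. How alike these regions are was not measured. The sequences are the 250 bases before the RefSeq transcript start in GRCm38.p6, 5′ to 3′ on the strand of the gene, at chr9:83806306-83806555 (minus strand) for Elovl4, chr6:86627924-86628173 (plus strand) for Asprv1 and chr2:130012090-130012339 (plus strand) for Tgm3. Capitals mark the words found on either strand among 4 words, none of which contains another. TGANTCA is the AP-1 word and AACCGGTT that of the GRHL factors. The TATA box was read as TATAAA and the GC box, to which Sp factors bind, was read as CCGCCC.
Elovl4: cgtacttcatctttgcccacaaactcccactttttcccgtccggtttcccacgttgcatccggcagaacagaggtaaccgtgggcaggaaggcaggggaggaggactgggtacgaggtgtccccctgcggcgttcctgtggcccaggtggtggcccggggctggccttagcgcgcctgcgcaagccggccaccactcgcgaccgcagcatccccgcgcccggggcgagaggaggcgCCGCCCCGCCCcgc
Asprv1: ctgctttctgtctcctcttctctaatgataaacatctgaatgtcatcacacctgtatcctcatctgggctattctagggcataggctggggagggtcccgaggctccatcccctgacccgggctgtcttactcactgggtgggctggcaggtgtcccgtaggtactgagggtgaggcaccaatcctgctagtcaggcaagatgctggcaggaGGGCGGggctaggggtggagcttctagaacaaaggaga
Tgm3: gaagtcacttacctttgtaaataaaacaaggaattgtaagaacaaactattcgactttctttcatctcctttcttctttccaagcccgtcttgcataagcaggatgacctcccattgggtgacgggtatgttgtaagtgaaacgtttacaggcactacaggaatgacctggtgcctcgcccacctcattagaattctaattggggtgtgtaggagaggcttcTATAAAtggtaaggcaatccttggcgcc
Elovl4 held a pair of overlapping GC boxes that begin 14 and 9 bases before the start, in a window of 69.6% G and C. Asprv1 held 1 GC box on the opposite strand, 38 bases before the start. Tgm3 held a TATAAA word 28 bases before the start and no GC box, in a window of 44% G and C.

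Windows were found for 9 of the 10 genes, Tgm1 with 2 starts, and the entry for Aloxe3 was missing. The GC box was present for 5 of these 9 genes (Elovl4, Asprv1, Alox12b, Tgm1 and Ugcg) and in 32.7% of 32851 promoter windows of the same length. TATAAA was present for Tgm3 alone of the 9 and in 12.4% of all windows. Neither TGANTCA, present in 6.75% of all windows, nor AACCGGTT, present in 0.116%, was found for any of the 9 genes in these 250 bases.

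The first comparison asked how the barrier enzymes differ between the stem cells and their progeny. All 10 genes were lower in α6+/CD34+ HFSCs than in α6+/CD34− progenitors, in untreated and in N1-AcSpd organoids, and all 10 passed the test in both (edgeR quasi-likelihood, adjusted p at most 0.00907 and 0.0265). The log2 differences ran from −2.88 to −1.36 in untreated organoids with a median of −2.06, where the median of all 19049 genes was 0.02. After N1-AcSpd they ran from −3.07 to −1.27 with a median of −2.32, where the median of all genes was −0.01. Of all genes tested, 16.1% were called lower in untreated HFSCs and 16.8% in N1-AcSpd HFSCs. Within each condition the 4 HFSC libraries lay below the 4 progenitor libraries for all 10 genes, and every mouse showed the lower value in its HFSCs for every gene. The share of all genes that separate in this way was not counted, so this only describes the 10 genes. In sorted bulk RNA, fewer cells that express a gene and less of its RNA in each cell cannot be told apart.

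**Figure D1:**
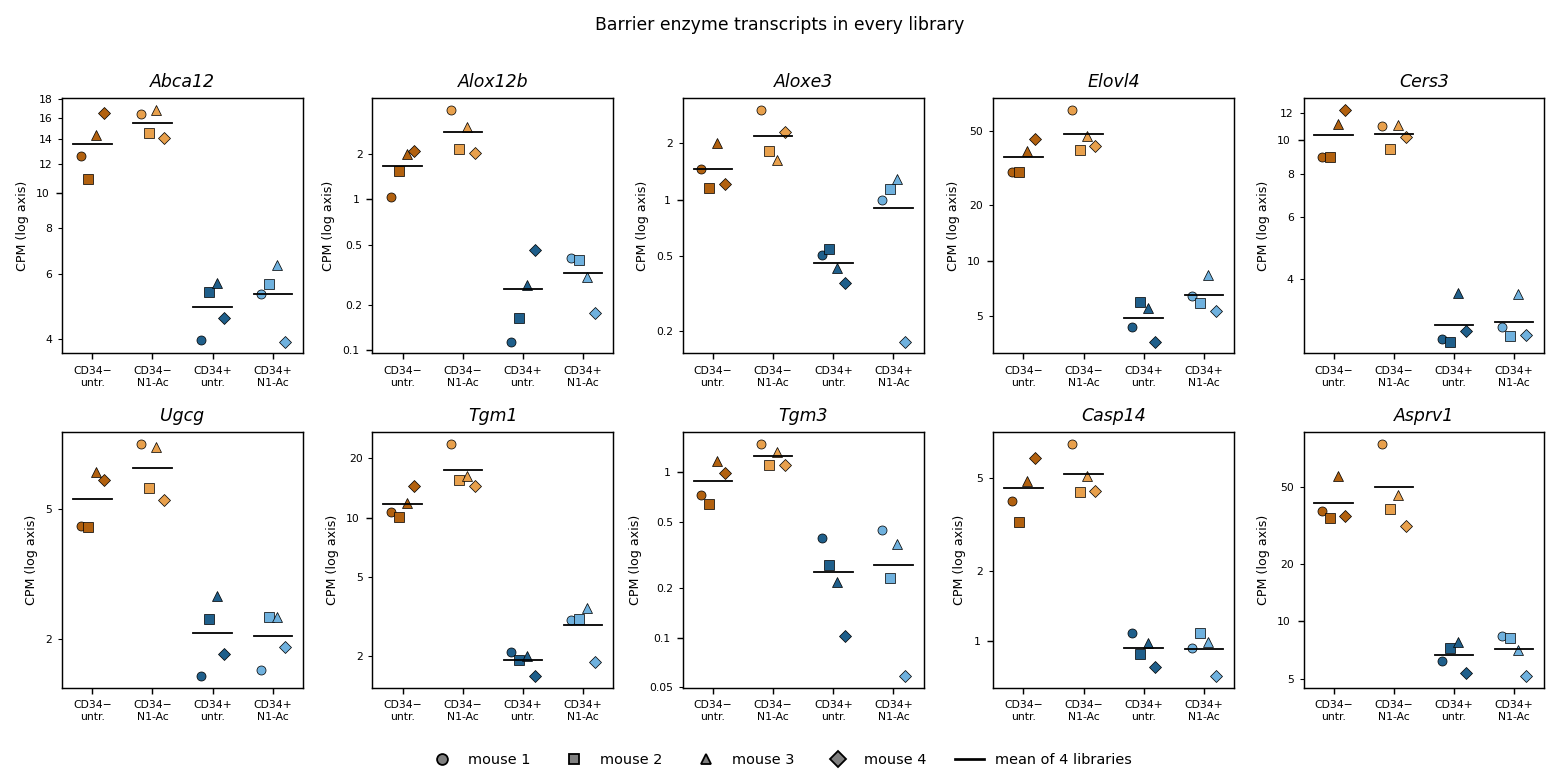
Level of each barrier enzyme in each of the 16 libraries, in CPM on a log axis that differs between panels, for α6+/CD34− progenitors (brown, orange) and α6+/CD34+ HFSCs (dark and light blue) from untreated (untr.) and N1-AcSpd (N1-Ac) organoids. Symbols mark the 4 mice and bars the mean of 4 libraries, and within each condition all progenitor points lie above all HFSC points.

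Elovl4, at chromosome 9, 83778692 to 83806277 (minus strand, GENCODE M21 on mm10), makes the very long chain fatty acids at the head of the route. It was measured at 30.2, 30.1, 38.8 and 45.0 CPM in untreated progenitors and at 4.38, 5.98, 5.53 and 3.65 CPM in untreated HFSCs. With N1-AcSpd the progenitors had 65.3, 39.4, 47.2 and 41.7 CPM and the HFSCs 6.42, 5.92, 8.34 and 5.34 CPM. Every HFSC library was below every progenitor library by a wide gap, and mouse 1 with N1-AcSpd was the highest of all. The means of 36.0±7.24 and 4.88±1.06 CPM in untreated organoids correspond to a 7.38-fold lower level in HFSCs (log2 −2.88, s.e. 0.22, adjusted p=7.86e-07), the largest untreated difference of the 10. With N1-AcSpd the level was 7.44-fold lower.

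Cers3, at chromosome 7, 66743504 to 66823691 (plus strand), is the ceramide synthase that joins these fatty acids to the sphingoid base. Untreated progenitors had 8.98, 8.94, 11.2 and 12.3 CPM and untreated HFSCs 2.67, 2.63, 3.63 and 2.82 CPM. The N1-AcSpd libraries had 11.0, 9.47, 11.1 and 10.2 CPM in progenitors and 2.90, 2.73, 3.62 and 2.76 CPM in HFSCs. The values of each population were close to each other whether or not N1-AcSpd was given. HFSCs were 3.51-fold lower untreated (log2 −1.81, s.e. 0.13, adjusted p=7.37e-07) and 3.48-fold lower with N1-AcSpd, with the smallest standard error of the 10 genes.

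Ugcg, at chromosome 4, 59189257 to 59222833 (plus strand), adds glucose to ceramide, a step used by many cell types. Its levels were 4.43, 4.41, 6.49 and 6.13 CPM in untreated progenitors and 1.54, 2.30, 2.71 and 1.80 CPM in untreated HFSCs. In N1-AcSpd organoids they were 7.96, 5.82, 7.75 and 5.33 and 1.60, 2.33, 2.33 and 1.88 CPM. The difference of 2.57-fold in untreated organoids (log2 −1.36, s.e. 0.21, adjusted p=0.000233) was the smallest of the 10, and with N1-AcSpd it was 3.31-fold.

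Abca12, at chromosome 1, 71242276 to 71414910 (minus strand), loads glucosylceramide into lamellar granules. It stood at 12.6, 10.9, 14.3 and 16.5 CPM in progenitors and 3.98, 5.37, 5.69 and 4.57 CPM in HFSCs of untreated organoids. After N1-AcSpd the values were 16.4, 14.6, 16.8 and 14.1 CPM and 5.31, 5.63, 6.38 and 3.93 CPM. The highest HFSC library had well under the level of the lowest progenitor library in both conditions. HFSCs were 2.77-fold lower untreated (log2 −1.47, s.e. 0.16, adjusted p=1.05e-05) and 2.91-fold lower with N1-AcSpd.

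Alox12b and Aloxe3 are the lipoxygenases that act in turn on the linoleate of the acylceramide, and they are neighbours on chromosome 11, at 69156989 to 69169792 and 69125896 to 69149115, both on the plus strand. Alox12b had 1.03, 1.53, 1.99 and 2.07 CPM in untreated progenitors and 0.114, 0.164, 0.271 and 0.462 CPM in untreated HFSCs. With N1-AcSpd it had 3.92, 2.16, 3.00 and 2.01 CPM in progenitors and 0.408, 0.398, 0.307 and 0.176 CPM in HFSCs. The HFSC values rest on 2 to 9 and 3 to 11 UMIs per library. The difference was 6.38-fold untreated (log2 −2.67, s.e. 0.40, adjusted p=0.000196) and 8.37-fold with N1-AcSpd, the largest of the 10 in that condition.

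Aloxe3 was measured at 1.46, 1.15, 1.99 and 1.22 CPM in untreated progenitors and 0.512, 0.548, 0.433 and 0.360 CPM in untreated HFSCs. After N1-AcSpd it was at 3.01, 1.81, 1.63 and 2.30 CPM in progenitors and 1.00, 1.14, 1.29 and 0.176 CPM in HFSCs. The last of these, mouse 4, held 3 UMIs while the other 3 N1-AcSpd HFSC libraries held 20 to 27. HFSCs were 3.13-fold lower untreated (log2 −1.64, s.e. 0.43, adjusted p=0.00907) and 2.41-fold lower with N1-AcSpd (log2 −1.27, s.e. 0.41, adjusted p=0.0265). This was the least secure of the 10 genes: the call was lost after N1-AcSpd when only the compared groups were fitted (adjusted p=0.0992) or when mouse 1 or mouse 2 was left out, or the progenitor library of mouse 1 or mouse 4 alone, and in untreated organoids without mouse 1 or mouse 3. The log2 differences were then −1.48 to −1.08 and −1.69 to −1.43.

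Tgm1 and Tgm3 are transglutaminases, which crosslink envelope proteins, Tgm1 at the membrane and Tgm3 in the cytosol. Tgm1, at chromosome 14, 55700009 to 55713926 (minus strand), had 10.7, 10.2, 11.8 and 14.5 CPM in untreated progenitors and 2.10, 1.92, 2.00 and 1.59 CPM in untreated HFSCs. With N1-AcSpd the values were 23.7, 15.5, 16.3 and 14.4 CPM and 3.04, 3.07, 3.50 and 1.88 CPM. The gap between the populations was wide in every mouse. The level was 6.18-fold lower in untreated HFSCs (log2 −2.63, s.e. 0.20, adjusted p=9.43e-07) and 6.07-fold lower with N1-AcSpd. The antisense gene Gm49067 overlaps exons of Tgm1 and was given 3144 counts in all where Tgm1 had 3159, so the reads of the pair cannot be told apart.

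Tgm3, at chromosome 2, 130012349 to 130050399 (plus strand), had 0.731, 0.638, 1.17 and 0.992 CPM in untreated progenitors and 0.398, 0.274, 0.217 and 0.103 CPM in untreated HFSCs. N1-AcSpd libraries had 1.48, 1.10, 1.33 and 1.11 CPM in progenitors and 0.445, 0.228, 0.368 and 0.0587 CPM in HFSCs. It was the most thinly counted of the 10, with 2 to 7 UMIs per untreated HFSC library and 1 to 12 with N1-AcSpd, against 10 to 27 and 27 to 36 in progenitors. HFSCs were 3.53-fold lower untreated (log2 −1.82, s.e. 0.46, adjusted p=0.00759) and 4.41-fold lower with N1-AcSpd, and the untreated call was lost without mouse 3 (log2 −1.60).

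Casp14 and Asprv1 act on filaggrin, the protein that bundles keratin and is later broken down to moisture-holding amino acids. Casp14, a caspase of the cornifying layers at chromosome 10, 78711991 to 78718294 (minus strand), stood at 4.00, 3.26, 4.89 and 6.09 CPM in progenitors and 1.08, 0.877, 0.975 and 0.770 CPM in HFSCs of untreated organoids. In N1-AcSpd organoids it stood at 7.05, 4.36, 5.13 and 4.43 CPM and 0.928, 1.08, 0.981 and 0.704 CPM. All 8 HFSC libraries lay between 0.704 and 1.08 CPM, below every progenitor library. The difference was 4.91-fold (log2 −2.30, s.e. 0.22, adjusted p=3.42e-06) untreated and 5.65-fold with N1-AcSpd.

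Asprv1, a retroviral-like aspartic protease that cuts profilaggrin, lies at chromosome 6, 86628164 to 86629710 (plus strand). It had 37.7, 34.7, 57.4 and 35.3 CPM in untreated progenitors and 6.20, 7.24, 7.80 and 5.34 CPM in untreated HFSCs. With N1-AcSpd the progenitors spread from 31.5 to 84.8 CPM (84.8, 38.7, 45.5 and 31.5) while the HFSCs had 8.35, 8.14, 7.05 and 5.17 CPM. Mouse 3 was the high progenitor library in untreated organoids and mouse 1 in N1-AcSpd organoids. The level in HFSCs was 6.21-fold lower untreated (log2 −2.63, s.e. 0.29, adjusted p=1.45e-05) and 6.97-fold lower with N1-AcSpd.

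**Figure D2:**
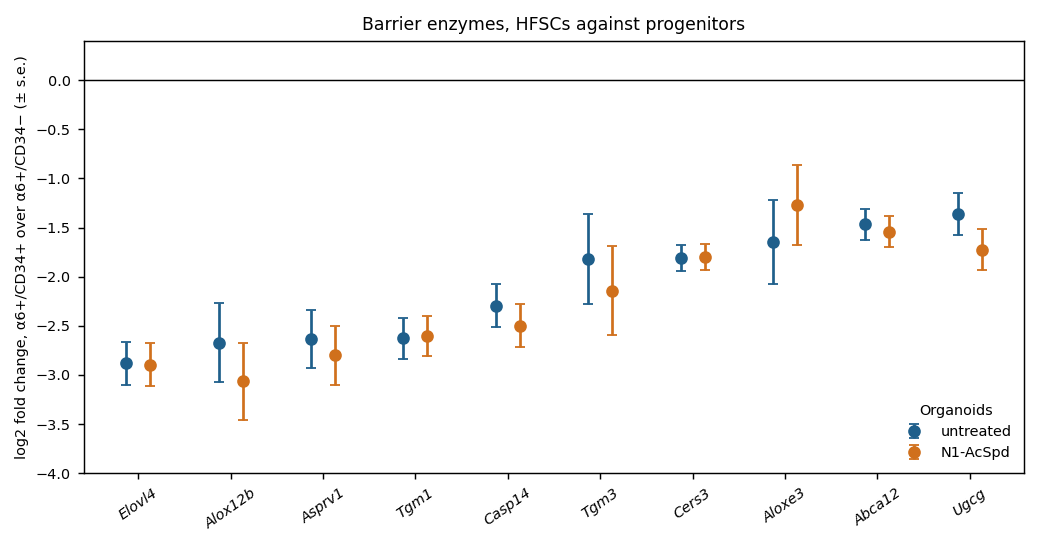
Difference between α6+/CD34+ HFSCs and α6+/CD34− progenitors for each barrier enzyme, as log2 fold change with its standard error (edgeR), in untreated (blue) and N1-AcSpd (orange) organoids. All 20 estimates are below 0, from −3.07 for Alox12b with N1-AcSpd to −1.27 for Aloxe3 with N1-AcSpd.

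The order of the 4 group means was almost the same for every gene. N1-AcSpd progenitors had the highest mean and untreated progenitors the next highest for all 10 genes, and N1-AcSpd HFSCs came next for 8, the exceptions being Ugcg and Casp14. The libraries of the 2 progenitor groups overlapped for all 10 genes, and so did those of the 2 HFSC groups. The step from untreated progenitors to the higher HFSC group had no overlap for 9 genes and overlapped for Aloxe3, where 1.29 CPM in an N1-AcSpd HFSC library exceeded 1.15 CPM in an untreated progenitor library. How often all genes show this order or this gap was not counted.

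For Cers3, Elovl4, Tgm1, Tgm3, Alox12b and Aloxe3 the other enzymes of the same families showed how far the difference was shared. Among ceramide synthases Cers3 fell in HFSCs while Cers4 and Cers2 rose and Cers1, Cers5 and Cers6 did not pass the test. The counts of Cers1 were nearly equal to those of the overlapping Gdf1 (812 and 810 in all), so the 2 cannot be told apart. Cers2 (4131 counts in all) overlaps Setdb1 (3067), and Cers5 (4728) overlaps Gm17058 (12099), both on the opposite strand. Cers4, which makes ceramides of shorter chains, went from 1.78±0.295 CPM in untreated progenitors to 5.64±1.38 CPM in HFSCs (log2 1.66, adjusted p=1.81e-05) and was higher by 1.73 on the log2 scale with N1-AcSpd. Cers2, the broadly expressed synthase, was higher by 0.37 (adjusted p=0.00191) and 0.64. As a description chosen after the values were seen, there were 4.54 to 8.34 Cers3 counts per Cers4 count in the 8 progenitor libraries and 0.374 to 0.868 in the 8 HFSC libraries. These are ratios of counts within a library and do not compare the amounts of the 2 transcripts.

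Of the elongases, Elovl7 and Elovl1, which act on shorter chains than Elovl4, were lower in HFSCs by log2 −0.63 (adjusted p=1.00e-05) and −0.30 (adjusted p=0.0036) untreated and by −0.71 and −0.43 with N1-AcSpd. Elovl1, with 25626 counts in all, overlaps Cdc20 on the opposite strand (14917). Elovl5 and Elovl6 did not pass the test, and Elovl2 and Elovl3 were near 0. Elovl4 differed by log2 −2.88 where its nearest tested relatives differed by −0.63 or less. Among transglutaminases Tgm5, also an epidermal enzyme, fell with Tgm1 and Tgm3, from 4.94±0.863 to 1.77±0.364 CPM untreated (log2 −1.48, adjusted p=0.000114) and by 1.59 on the log2 scale with N1-AcSpd. Tgm4 did not pass the test, and Tgm2, Tgm6 and F13a1 had group means of at most 0.0601 CPM. Tgm4, with 1840 counts in all, overlaps Gm49323 (2196) and Zdhhc3 (11209). Of the lipoxygenases, Alox8 was lower by log2 −0.72 (adjusted p=0.0341, and 0.055 to 0.0623 without a filter, with library totals or with only the compared groups) and −0.97 (adjusted p=0.00597), Alox12 did not pass the test, and Alox5 and Alox15 were at or near 0. Alox12e was too low to enter the tests, with 0.109±0.0441 CPM in untreated progenitors and 0.409±0.173 CPM in untreated HFSCs.

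**Figure D3:**
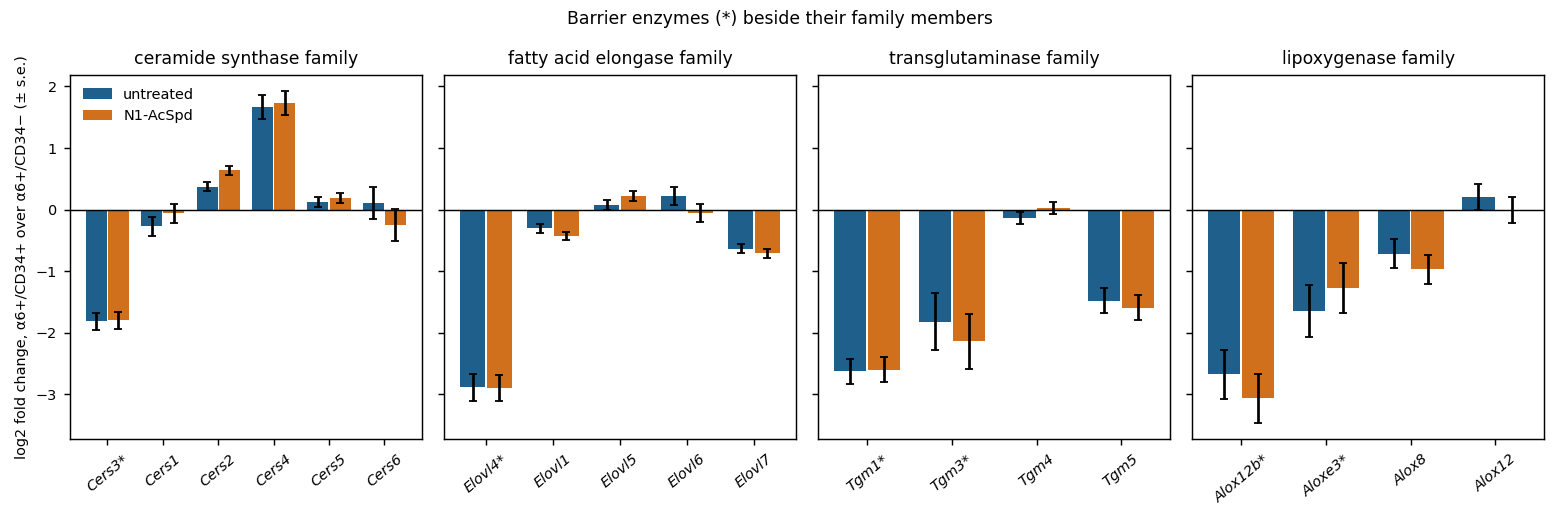
Log2 fold change of α6+/CD34+ HFSCs over α6+/CD34− progenitors, with standard error, for the barrier enzymes (marked *) and the tested members of their families, in untreated (blue) and N1-AcSpd (orange) organoids. Cers4 and Cers2 extend above 0 to as much as 1.73 while Cers3 is at −1.81 and −1.80, and Elovl4 extends to −2.89 beside elongases of −0.71 or above.

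The rest of the acylceramide route was split. Of 34 tested genes 16 were lower and 8 higher in untreated HFSCs and 15 were lower and 8 higher with N1-AcSpd, and the median log2 difference of −0.09 and −0.16 was close to 0 (0.03 and −0.04 when libraries were scaled by their totals). Of all 19049 genes tested, 3064 were called lower and 3059 higher in untreated HFSCs, and 3199 and 3147 with N1-AcSpd. Among route genes whose mean count reached 50, the largest decreases were those of Sdr9c7, which oxidises the linoleate after the lipoxygenases, and Pnpla1, which transfers linoleate to the ceramide. Sdr9c7 was at 3.93±0.980 CPM in untreated progenitors and 0.527±0.309 CPM in HFSCs (log2 −2.88, adjusted p=0.000152). Pnpla1 was at 3.50±0.889 and 0.586±0.165 CPM (log2 −2.57, adjusted p=1.69e-05). With N1-AcSpd these differences were −3.04 and −2.66. Below that count, Cyp4f39 was called lower on 28 UMIs over the 4 untreated progenitor libraries and 1 over the 4 HFSC libraries. Beside Cers4 the largest untreated increase was that of Degs1, the general dihydroceramide desaturase, from 149±7.13 to 229±18.9 CPM (log2 0.62, adjusted p=1.10e-05), and with N1-AcSpd that of Cers2. Both hold for genes whose mean count reached 50, since Sgms2, a sphingomyelin synthase with a mean of 12.2 counts, was higher by 0.92 with N1-AcSpd (adjusted p=0.0172).

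The transcripts of proteins that the transglutaminases join were nearly all lower in HFSCs. Of 13 tested cornified envelope substrates 12 were lower and none was higher in untreated organoids (median log2 −1.80), the exception being S100a10, and all 13 were lower with N1-AcSpd (median −1.74). S100a10 was then lower by log2 −0.17 only (edgeR adjusted p=0.0242), where scaling by library totals moved the median of all genes from −0.01 to 0.11. Sprr2d and Sprr1a, small proline-rich envelope proteins, had the largest untreated decreases, from 57.2±18.0 to 7.84±1.59 CPM (log2 −2.86) and from 457±90.7 to 75.0±7.76 CPM (log2 −2.61). Cnfn, the envelope protein cornifelin, had the largest decrease with N1-AcSpd among substrates whose mean count reached 50, with 89.2±30.0 CPM in progenitors and 11.9±1.97 CPM in HFSCs (log2 −2.91), ahead of Sprr2d (−2.68). Hrnr (hornerin), with 2 to 5 UMIs per N1-AcSpd HFSC library, had −2.97. It overlaps the antisense gene Gm37245, which was given 9620 counts in all where Hrnr had 228. Of 15 filaggrin processing and barrier protease genes 9 were lower in untreated HFSCs and 10 with N1-AcSpd, none was higher, and the medians were −0.79 and −0.44. Klk5 and Klk7, the kallikreins of desquamation, had the largest decreases in both conditions, of −3.06 and −2.91 untreated and −3.01 and −3.02 with N1-AcSpd.

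**Figure D4:**
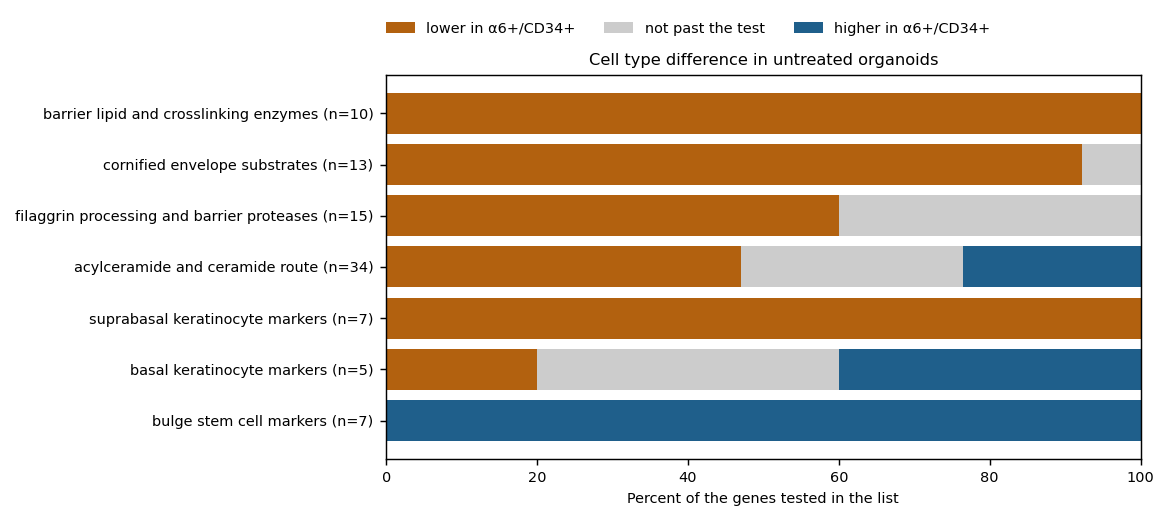
Share of the tested genes of each list that were lower (brown), higher (blue) or not past the test (grey) in α6+/CD34+ HFSCs against α6+/CD34− progenitors of untreated organoids. All 10 barrier enzymes and all 7 suprabasal markers are lower, 12 of 13 envelope substrates are lower, 16 of 34 genes of the ceramide route are lower and 8 higher, and all 7 bulge markers are higher.

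Markers of the suprabasal layers moved with the barrier enzymes. Their summed level (Krt1, Krt10, Krtdap, Sbsn, Dsg1a, Dsc1 and Calm4) was 1136 to 1561 CPM in untreated progenitors and 295 to 326 CPM in untreated HFSCs, and 1356 to 1808 against 306 to 406 CPM with N1-AcSpd. Part of this sum, that of Sbsn and Calm4, was assigned in nearly equal counts to an overlapping gene. Krt1 was at 1.65±0.238 and 0.258±0.0815 CPM and Krt10 at 14.2±1.91 and 8.99±0.734 CPM in untreated progenitors and HFSCs. How far cells of the suprabasal layers within the progenitor gate make up the difference in the barrier enzymes was not tested.

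Genes with the most similar pattern were sought among 9373 other genes whose mean count reached 50, by the root mean square difference between centred log2 profiles over the 16 libraries. Epgn, an epidermal growth factor family ligand, was nearest to both Abca12 (0.132) and Cers3 (0.125), and Metrnl, a secreted protein, was nearest to Tgm1 (0.110). Klk7 was nearest to Elovl4 (0.159), Calm4 to Asprv1 (0.192), Sdr16c5 to Casp14 (0.139) and Cysrt1 to Alox12b (0.213). Ugcg had Gramd3 (0.186), Tgm3 had Olfr642 (0.173) and Aloxe3 had Ppif (0.258), whose counts are nearly equal to those of its antisense neighbour. Ugcg lay nearer to Abca12 (0.160) than to any gene outside the 10, while the other 9 each had a nearer gene among the 9373. A nearer gene is easily found among so many when the members are so few. This therefore does not tell how alike the 10 genes are. Metrnl had means of 19.0 and 24.6 CPM in untreated and N1-AcSpd progenitors and 3.08 and 4.55 CPM in HFSCs.

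The next comparison asked whether N1-AcSpd changed the barrier enzymes within a population. None of the 10 passed the test in progenitors or in HFSCs (edgeR quasi-likelihood, adjusted p from 0.186 in progenitors and from 0.242 in HFSCs), where 0.614% and 0.325% of all genes were called. At an unadjusted p under 0.05 there was 1 of 10 in progenitors, where 13.6% of all genes were under it, and 2 of 10 in HFSCs, where 13.2% were. DESeq2 also called none, with 3 and 2 at that unadjusted p, and gave no adjusted p for 4 of the genes in progenitors and 5 in HFSCs. The estimates in progenitors were above 0 for all 10 genes, with a median of 0.37, where 50% of all genes were above 0 with a median of 0.00. In HFSCs 8 of 10 were above 0 with a median of 0.15, against 46.6% of all genes with a median of −0.01. This median rested on single libraries: it was 0.37 without the N1-AcSpd HFSC library of mouse 4, and leaving out any other library or mouse that enters the comparison gave 0.05 (without mouse 1) to 0.22. The 10 genes were read in the same libraries, so these counts are not independent observations.

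Tgm1 was under this unadjusted p in both populations and Aloxe3 in HFSCs. Tgm1 went from 11.8±1.95 to 17.5±4.21 CPM in progenitors (log2 0.57, 95% interval 0.17 to 0.97, edgeR adjusted p=0.186). In HFSCs it went from 1.91±0.222 to 2.87±0.694 CPM (log2 0.59, 95% interval 0.15 to 1.03, edgeR adjusted p=0.242). Within mice 1 to 4 the log2 ratios were 1.15, 0.61, 0.47 and −0.01 in progenitors and 0.53, 0.68, 0.80 and 0.24 in HFSCs, so the value with N1-AcSpd was higher in 3 of 4 mice and in 4 of 4. The libraries with and without N1-AcSpd overlapped in both populations.

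Aloxe3 had an estimate of 0.96 in HFSCs (95% interval 0.03 to 1.88, edgeR adjusted p=0.364) and of 0.58 in progenitors (interval −0.27 to 1.43). Its ratios within the mice were 0.97, 1.05, 1.57 and −1.03 in HFSCs, with mouse 4 opposite to the rest. Alox12b had 0.74 in progenitors (interval −0.01 to 1.49) and 0.35 in HFSCs (interval −0.56 to 1.26), and its ratios in HFSCs ran from −1.39 to 1.84 on counts of 2 to 11 UMIs. Elovl4 had 0.43 (interval −0.01 to 0.86) and 0.41 (interval −0.03 to 0.86).

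Cers3 had the narrowest intervals, of −0.26 to 0.29 around 0.01 in progenitors and −0.26 to 0.32 around 0.03 in HFSCs. Ugcg had −0.11 to 0.75 and −0.50 to 0.42, and Abca12 had −0.14 to 0.52 and −0.23 to 0.46. For Casp14 the intervals were −0.23 to 0.62 and −0.49 to 0.49, for Asprv1 −0.31 to 0.87 and −0.49 to 0.72, and for Tgm3 −0.40 to 1.40 and −0.84 to 1.20. All of these include 0.

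The log2 ratios with N1-AcSpd differed between the mice. Each rests on 1 treated and 1 untreated library, so differences between animals and between single libraries cannot be told apart. In progenitors of mouse 1 all 10 genes were higher with N1-AcSpd, with a median log2 ratio of 1.03, and in mouse 2 all 10 were higher with a median of 0.42. In mouse 3, 7 were higher with a median of 0.21, and in mouse 4, 8 were lower with a median of −0.14. In untreated progenitors the library of mouse 2 was the lowest of its group for 9 of the 10 genes and that of mouse 4 the highest for 6. The N1-AcSpd progenitor library of mouse 1 was the highest of its group for 8 of the 10 genes, and without that library the estimates were above 0 for 8 genes with a median of 0.24. Without mouse 1 they were above 0 for 7 genes with a median of 0.16. How often all genes move or rank in this way, in progenitors or in HFSCs, was not counted. The summed suprabasal markers went from 1186 to 1808 CPM in mouse 1, from 1136 to 1361 in mouse 2, from 1472 to 1529 in mouse 3 and from 1561 to 1356 in mouse 4. Their part in the values of the barrier enzymes was not tested.

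In HFSCs the medians were 0.42, 0.12, 0.17 and −0.09 for mice 1 to 4, with 9, 8, 7 and 3 of the 10 genes higher with N1-AcSpd. In untreated HFSCs the library of mouse 4 was the lowest of its group for 6 of the 10 genes. The N1-AcSpd HFSC library of mouse 4 was the lowest of its group for 8 of the 10 genes. It also had the lowest summed suprabasal markers of its group, 306 CPM against 384 to 406 in the other mice.

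**Figure D5:**
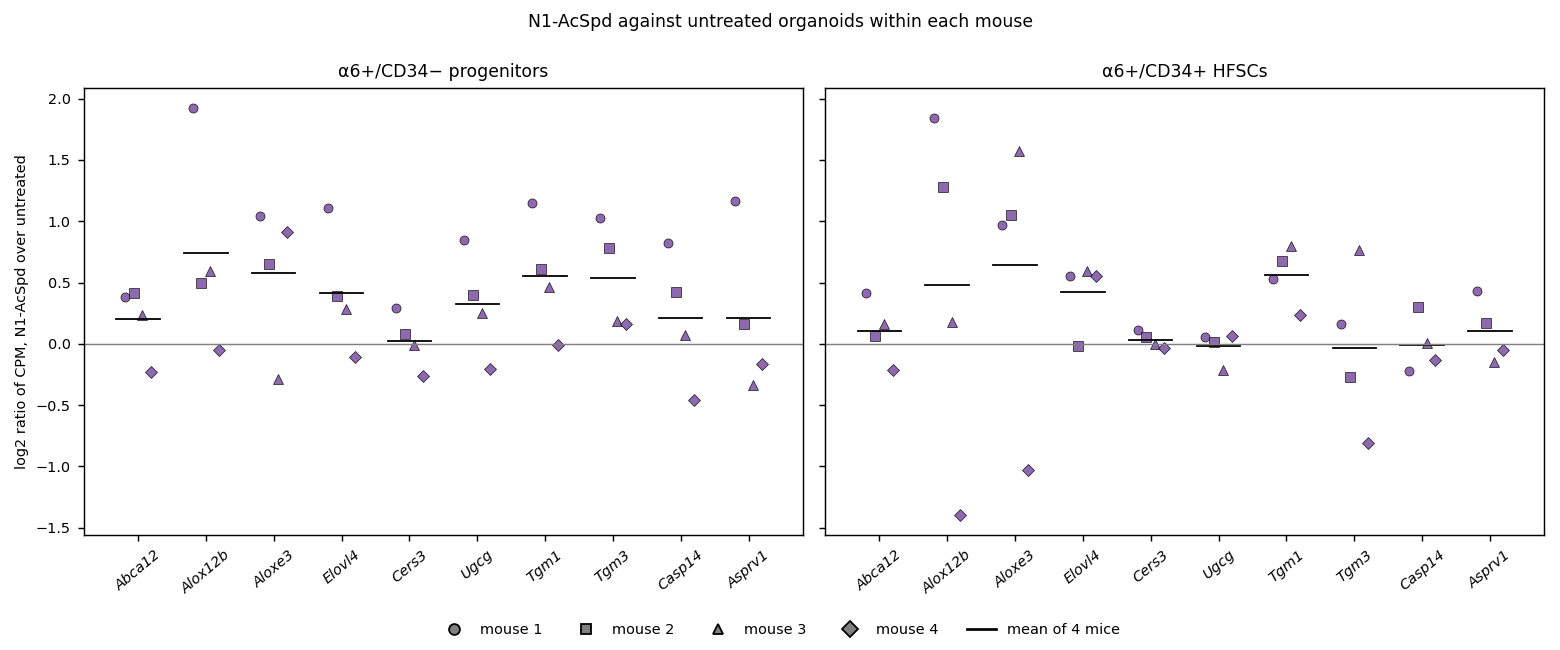
Log2 ratio of CPM, N1-AcSpd over untreated, for each barrier enzyme within each mouse, in α6+/CD34− progenitors (left) and α6+/CD34+ HFSCs (right). Symbols mark the mice and bars the mean of 4 mice, with mouse 1 (circles) at or near the top and mouse 4 (diamonds) at or near the bottom for most genes in progenitors, and Alox12b and Aloxe3 most spread in HFSCs.

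Among the listed pathway and family genes around the 10, N1-AcSpd changed 1 in progenitors and none in HFSCs. Ctsd, the lysosomal protease cathepsin D, rose in progenitors from 409±12.7 to 481±12.5 CPM (log2 0.23, s.e. 0.04, adjusted p=0.0339), with counts nearly equal to those of the overlapping Gm49369. In HFSCs Ctsd had means of 428±22.0 and 483±24.7 CPM and did not pass the test. The call was lost with no filter on low counts (adjusted p=0.0586) and with only the compared groups in the fit (adjusted p=0.078). No envelope substrate and no gene of the ceramide route passed with edgeR, where 4 and 2 of 13 substrates and 9 and 4 of 34 route genes had an unadjusted p under 0.05 in progenitors and HFSCs. DESeq2 called 2 and 1 substrates and 4 and 0 route genes, all higher with N1-AcSpd, and with mouse as a replicate block edgeR called 1 route gene, Elovl1, in progenitors. Among the cell type marker lists 1 gene was called, Nfatc1 of the bulge stem cell markers, which was lower in N1-AcSpd progenitors, with 5.84±0.536 CPM untreated and 4.56±0.265 CPM with N1-AcSpd (log2 −0.35, adjusted p=0.048). This call was lost with library totals (adjusted p=0.0618), DESeq2 size factors (0.0517), no filter (0.0893), thinning (0.316) or only the compared groups (0.139). Of the 7 tested bulge markers 5 had an unadjusted p under 0.05 in progenitors and 3 in HFSCs, with median log2 estimates of −0.35 and −0.17. Among the 5 in progenitors Lhx2 was higher with N1-AcSpd (log2 0.68) and the rest were lower. Of all genes tested, 13.6% were under this unadjusted p in progenitors and 13.2% in HFSCs.

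The last comparison asked whether the response to N1-AcSpd differed between the populations, or equally whether the difference between populations changed with N1-AcSpd. No member passed this interaction test, and 0% of all genes did (edgeR, 4.19% of all genes and none of the 10 at an unadjusted p under 0.05, none of the 10 with DESeq2). The estimates ran from −0.39 for Alox12b (95% interval −1.60 to 0.82) to 0.37 for Aloxe3 (interval −0.87 to 1.61). For Cers3, the most precisely measured, the interval was −0.39 to 0.41 around 0.01. For Elovl4 and Tgm1 it was −0.65 to 0.63 and −0.54 to 0.59. The difference of the barrier enzymes between HFSCs and progenitors was not shown to change with N1-AcSpd within these limits.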

How the data were processed

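Sorted cells of 4 groups (4 mice each) were measured by 3′ RNA-seq with UMIs, all 16 samples having been pooled after cDNA synthesis. The deposited table holds raw counts of unique molecules per gene, which the authors made by demultiplexing (FLEXBAR), aligning read 2 to mm10 (kallisto 0.45.0 in the submitters' processing notes), intersecting with genes (BEDTools) and collapsing UMIs. The annotation release and the use of strand are not given in the sources used here, so overlapping genes cannot be separated. Empty cells (156050) were read as 0.

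Genes with a mean of at least 5 counts (19049 of 32989) were tested with edgeR 4.0.16 (R 4.3.3; TMM, quasi-likelihood, all 16 libraries, 1 mean per group), with Benjamini-Hochberg adjustment over all of them and a threshold of 0.05. Standard errors are the log2 fold change over the square root of F, and intervals are 95% t intervals on the model's degrees of freedom. CPM are TMM-scaled. Alternatives were DESeq2 1.42.0 size factors and test, library totals, other filters, thinning to 15480075 UMIs, only the compared groups, mouse as a block, and leaving out each library or mouse. Fits were tested on simulated data. The sample titles give a replicate number, and the column names hold a code shared by the libraries of 1 number. Neither is called a mouse. The paper states that 4 independent donors were used, so same-numbered libraries were taken as paired by animal. Deviations from the group means correlated by 0.03 on average between libraries of the same mouse (24 pairs, −0.10 to 0.14) and by −0.01 between other mice (72 pairs).

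The members and the gene lists were chosen with earlier results of these data known. Named genes were all 10 members, the 2 largest called increases and decreases of each list among genes whose mean count reached 50, and the gene nearest to each member by the root mean square difference of centred log2(CPM + 0.5) profiles. Gene positions are from GENCODE M21 and upstream sequences from RefSeq (GRCm38.p6). Sptssb, Sts, Tgm7 and Ctsv were not analysed here. Counting error and the spread between 4 mice limit the genes with few UMIs.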

Additional observations from a re-analysis of the deposited data

Results flagged for a closer look

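Among 40 sets of 4 libraries (10 genes in 4 groups), 1 held a library far from the others by Dixon's test, where chance flags about 1 in 20. In untreated α6+/CD34− progenitors Asprv1 was at 57.4 CPM in mouse 3 and at 34.7 to 37.7 CPM in the other mice, a gap of 0.864 of the range, which passes the critical value for 4 samples. The same library was the highest of its group for 4 of the 10 genes. Without it Asprv1 was still lower in HFSCs of untreated organoids, and the log2 difference stayed within −2.75 to −2.43 whichever library or mouse was left out.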

How the results depend on the processing

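All 10 barrier enzymes kept their lower level in HFSCs in both conditions under every alternative, and 8 to 10 stayed past the test. The losses were those of Aloxe3 and, without mouse 3, Tgm3. When libraries were scaled by totals alone, the median over all tested genes moved from 0.02 to 0.14 untreated and from −0.01 to 0.11 with N1-AcSpd, and the calls from 3059 higher and 3064 lower to 4861 and 1762 untreated and from 3147 and 3199 to 4792 and 1904 with N1-AcSpd. The medians of the 10 genes were then −1.94 and −2.20. With mouse as a replicate block 10 and 10 of the enzymes were called between populations and 0, 0 and 0 for N1-AcSpd in progenitors, in HFSCs and for the interaction, so that the paired analysis changed no call among them. Over all genes N1-AcSpd gave 117 and 62 calls in progenitors and HFSCs, 349 and 152 with the block, 35 and 35 without a filter, 35 and 27 after thinning, 0 and 3 with only the compared groups and 558 and 423 with DESeq2, and the interaction 0 with edgeR and 72 with DESeq2. No barrier enzyme was called for N1-AcSpd under any of these.

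Signs turned only for N1-AcSpd and interaction estimates, none of which had passed the test, and the cause was not tested. For Casp14 in HFSCs the log2 estimate was 0.0123 with DESeq2 size factors, 0.00828 with library totals, 0.00087 without a filter, 0.00388 with the block, 0.00457 with only the compared groups and 0.0148 with DESeq2. After thinning it was 0.0502 for Ugcg in HFSCs, and for the interaction −0.0141 for Cers3, −0.0354 for Tgm1 and 0.10 for Tgm3. The interaction of Elovl4 was 0.00084 with DESeq2 size factors and 0.00171 with DESeq2. Leaving out 1 library or mouse gave, in progenitors, −0.14 to 0.53 for Asprv1, −0.0359 to 0.44 for Casp14 and −0.0744 to 0.12 for Cers3. In HFSCs it gave −0.0308 to 1.00 for Alox12b, −0.00138 to 0.24 for Asprv1, −0.11 to 0.10 for Casp14, −0.0719 to 0.16 for Cers3, −0.18 to 0.50 for Tgm3 and −0.16 to 0.13 for Ugcg. For the interaction it gave −0.18 to 0.0456 for Abca12, −0.72 to 0.0927 for Alox12b, −0.17 to 0.71 for Aloxe3, −0.37 to 0.21 for Asprv1, −0.42 to 0.11 for Casp14, −0.086 to 0.16 for Cers3, −0.24 to 0.20 for Elovl4 and −0.10 to 0.27 for Tgm1. Counts of 1 to 12 UMIs per HFSC library for Tgm3 and 2 to 11 for Alox12b leave their N1-AcSpd estimates wide.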
